A study of Mus musculus with 4 samples.

Results

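The genes described here are 32 imprinted genes, that is, genes transcribed mainly or only from the copy inherited from 1 parent. They were taken by name from a list that includes the Dlk1-Dio3 cluster, and all 32 were found among the 43432 genes of the count table by their GENCODE M21 symbols. Of the 32, 29 had at least 1 count and 21 passed the filter on low counts. RNA sequencing covered 4 tumours that had grown under the skin of female C57BL/6 mice from 9464D-GD2 cells. The cells are a graft of a single mouse neuroblastoma line with the ganglioside GD2 on its surface, whose parent line 9464D comes from a mouse with a MYCN transgene. In the first group, 2 mice were given 25 µg dinutuximab together with 20 µg small extracellular vesicles (sEVs) that the tumour line itself had released. In the second group, 2 mice were given 25 µg dinutuximab alone. Dosing was 2 times per week for 5 treatments in both groups, so every tumour was under the antibody, and no untreated tumour is among these groups. Dinutuximab is a therapeutic antibody against GD2, and the series title links vesicles with resistance to it. The comparison asks how imprinted genes differed when sEVs were added. The tumours are called sEV replicates 3 and 4 and dinutuximab replicates 3 and 4, after the numbers in the labels.

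Imprinted genes lie in clusters whose parental copies carry different DNA methylation at a control region, so that neighbouring genes are read from opposite copies. In the Dlk1-Dio3 cluster the protein genes Dlk1, Rtl1 and Dio3 are read from the father's copy and the long RNAs Meg3, Rian and Mirg from the mother's copy. In the Igf2-H19 cluster the growth factor gene Igf2 is paternal and the long RNA H19 maternal. Many of these genes act in fetal and placental growth and are turned down after birth, and DLK1 and IGF2 are also known from neuroendocrine and embryonal tumours.

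The libraries held between 24452699 and 28187573 counts. sEV replicate 3 stood apart from the others: on principal component 1 of the tested genes, with 42.4% of the variance, it lay at -35.2, against 6 for the other sEV library and 12.9 and 16.3 for the dinutuximab libraries. Among neuroblastoma markers, Hand2 (between 145 and 172 CPM, that is, counts per 1e6 counts of the scaled library), Gata2, Isl1 and Mycn were well measured in every library, whereas Dbh, the noradrenaline synthesis enzyme gene, was at 0 counts in all 4. Mycn had 160 and 139 CPM in sEV tumours and 133 and 162 CPM in dinutuximab tumours, so that the groups overlapped. Per the series design both tumours of a group are biological replicates.

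No imprinted gene passed the test, and the Dlk1-Dio3 cluster gave the most even pattern: its 5 tested genes, Dlk1, Rtl1, Meg3, Rian and Mirg, were all lower in both sEV tumours than in both dinutuximab tumours. For Meg3, which passed the filter on low counts only through the dinutuximab group, that direction was partly set by the filter, so 4 genes remain without it. The 5 log2 fold changes ran from -1.54 to -0.88. Outside that cluster Phlda2, a maternal gene that limits placental growth, had the lowest p of any member and averaged 31.4 ± 4.86 CPM in sEV tumours and 59.4 ± 11.3 CPM in dinutuximab tumours (SD, n = 2 each). Gnas, Impact, Igf2r and Zrsr1, the members with the highest levels beside Phlda2, differed by at most 0.13 on the log2 scale, in either direction. In the quasi-likelihood test of edgeR, with p-values adjusted after Benjamini and Hochberg over 13823 genes, 0 of 21 tested members were called, where 0.0% of all genes were called, and the smallest adjusted p of a member was 0.463. At an unadjusted p under 0.05, 7 members were lower and 0 higher. The background of that limit was 3.1% of all genes lower and 2.47% higher. The number of lower members was 9 without sEV replicate 3 (2.9% of all genes), 5 without sEV replicate 4 (5.44%), 4 without dinutuximab replicate 3 (3.88%) and 6 without dinutuximab replicate 4 (3.05%). Over all genes edgeR and limma-voom called 0, and DESeq2 called 17 higher and 38 lower (0.398% in all). Phlda2 was the only member among the DESeq2 calls. It also passed with the tumour number as a block, where 0.485% of all genes passed, and so did Rtl1, Mirg and Phlda2 without the filter on low counts, where 1.19% passed. With 2 tumours against 2, an exact two-sided permutation test of a single gene cannot give a p below 0.33.

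Mean levels per kilobase of exon ran from 136 CPM per kb for Gnas to 0.000539 for Usp29 among the 29 genes with a count. Gnas, which encodes the stimulatory G protein subunit, was the highest on that scale, at 135 and 141 CPM per kb in sEV tumours and 131 and 134 CPM per kb in dinutuximab tumours. Phlda2 followed, at 24.9 and 31.0 CPM per kb in sEV tumours and 60.2 and 45.9 CPM per kb in dinutuximab tumours. Impact, a regulator of the kinase GCN2, had 12.6 and 11.1 CPM per kb in sEV tumours and 11.8 in each dinutuximab tumour. Igf2r, the receptor that clears IGF2, had 8.95 and 12.3 CPM per kb in sEV tumours and 10 and 13.1 in dinutuximab tumours, so that its order against Impact differed between tumours. All other members averaged at most 2.05 CPM per kb. The 5 tested Dlk1-Dio3 genes lay between 0.0178 CPM per kb for Meg3 and 0.591 for Rtl1.

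Another set of members was at or near 0. Zim1, Nnat, which encodes neuronatin, and Nap1l5 were at 0 counts in all 4 libraries, which allows up to 3 counts or between 0.104 and 0.123 CPM in a library, counting error only. Peg3, a zinc finger gene, had 2 and 0 counts in sEV tumours and 0 and 3 in dinutuximab tumours. Usp29, which starts beside Peg3 on the other strand, and Rasgrf1, an activator of RAS proteins, each had 1 count in 1 dinutuximab library. Peg10, a retrotransposon-derived gene, had 4 counts in dinutuximab replicate 4 and 0 in the other 3 libraries, and Plagl1, a zinc finger factor, had 2 and 4 counts in sEV tumours and 1 and 0 in dinutuximab tumours. Differences in these genes were not detectable at this depth.

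**Figure D1:**
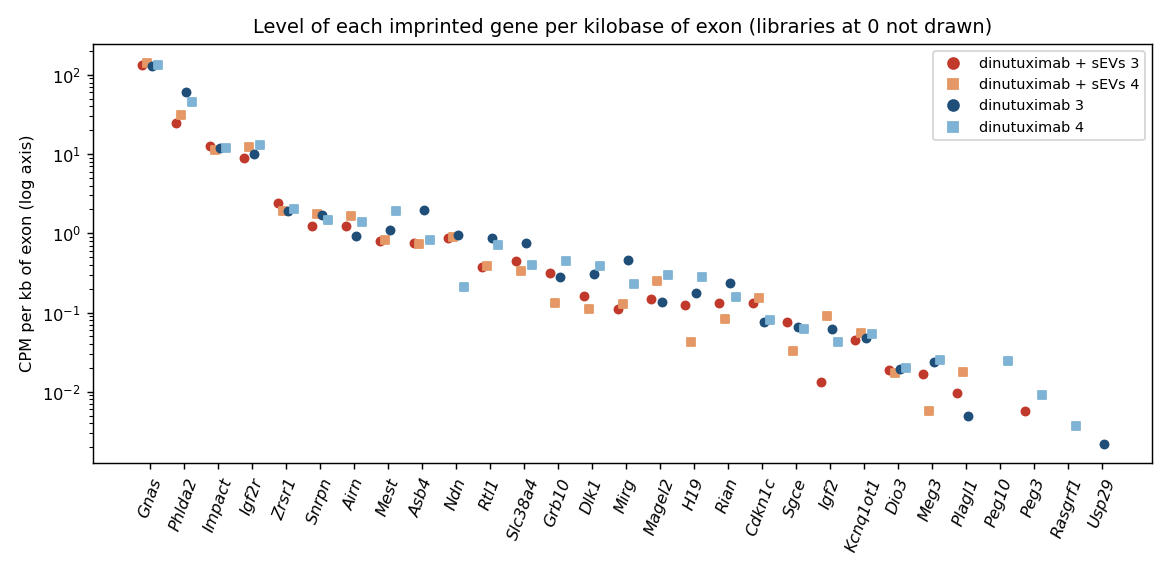
CPM per kilobase of exon on a log axis for the 29 imprinted genes with a count, ordered by their mean over 4 tumours; each point is 1 tumour (red and orange, dinutuximab plus sEVs; blue, dinutuximab) and a library at 0 has no point. Gnas sits at 131 to 141 CPM per kb and all genes to the right of Igf2r average 2.05 or less.

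The Dlk1-Dio3 cluster spans 109452823 to 110281097 on chromosome 12 of GRCm38, from the start of Dlk1 to the end of Dio3. Summed over its 6 genes it held 180 and 164 counts in sEV tumours and 400 and 287 counts in dinutuximab tumours. The exact 95% Poisson intervals, which cover counting error only, were 155 to 208 and 140 to 191 counts in sEV tumours, and 362 to 441 and 255 to 322 counts in dinutuximab tumours. The summed level was 6.88 and 5.68 CPM in sEV tumours and 15.6 and 11.8 CPM in dinutuximab tumours. The sEV mean, 6.28 ± 0.842 CPM, was 45.9% of the dinutuximab mean, 13.7 ± 2.71 CPM (SD, n = 2 each), a log2 ratio of -1.12. The lowest dinutuximab tumour was 1.71-fold above the highest sEV tumour. Without sEV replicate 3 the log2 ratio was -1.27, and leaving out each tumour in turn kept it between -1.31 and -0.9.

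The genes known as paternal and those known as maternal in the cluster had like ratios. Parental origin of the reads was not measured, so both words name the known imprint of a gene only. The paternal genes Dlk1, Rtl1 and Dio3 together had 3.36 and 3.12 CPM in sEV tumours and 7.41 and 6.76 CPM in dinutuximab tumours, a log2 ratio of -1.13. The maternal RNAs Meg3, Rian and Mirg together had 3.51 and 2.56 CPM in sEV tumours and 8.18 and 5.0 CPM in dinutuximab tumours, a log2 ratio of -1.12. Rtl1 held 63 of 88 and 71 of 90 paternal counts in sEV tumours and 144 of 190 and 111 of 165 in dinutuximab tumours. The strand setting of the counts is not known, so Rtl1 counts may include its maternal antisense transcript, and the sets may not be separate. The maternal RNAs made up 51.1% and 45.1% of the cluster's counts in sEV tumours and 52.5% and 42.5% in dinutuximab tumours, so that the spread within a group was wider than any difference between groups.

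Dlk1 (ENSMUSG00000040856, chromosome 12, 109452823 to 109463336, plus strand) encodes a membrane protein with EGF-like repeats that is known as a non-canonical Notch ligand and as an inhibitor of adipocyte differentiation. It had 24 and 18 counts in sEV tumours and 45 and 53 in dinutuximab tumours, or 0.917 and 0.624 CPM in sEV tumours and 1.75 and 2.17 CPM in dinutuximab tumours. Both sEV tumours lay below both dinutuximab tumours, with a gap of 1.91-fold between the nearest. The log2 fold change was -1.35 ± 0.39 (SE, edgeR adjusted p = 0.676).

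Rtl1 (ENSMUSG00000085925, 109589193 to 109600330, minus strand), a retrotransposon-derived gene needed in placenta and fetal muscle, was the cluster's most abundant protein gene. It had 63 and 71 counts in sEV tumours and 144 and 111 in dinutuximab tumours, or 2.41 and 2.46 CPM in sEV tumours and 5.61 and 4.55 CPM in dinutuximab tumours. The sEV tumours differed from each other by 1.02-fold and lay 1.85-fold or more below the dinutuximab tumours. The log2 fold change was -1.06 ± 0.28 (SE, edgeR adjusted p = 0.605). The third paternal gene, Dio3 (110279068 to 110281097), which encodes the deiodinase that inactivates thyroid hormone, had 1 count in every library.

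Rian (ENSMUSG00000097451, 109603940 to 109661716, plus strand), the host of many small nucleolar RNAs, had 63 and 44 counts in sEV tumours and 112 and 70 in dinutuximab tumours, or 2.41 and 1.53 CPM in sEV tumours and 4.37 and 2.87 CPM in dinutuximab tumours. Its groups were separated by 1.19-fold, less than the 1.58-fold and 1.52-fold between the tumours of the sEV and dinutuximab groups. The log2 fold change was -0.88 ± 0.36 (SE, edgeR adjusted p = 0.861). It was -0.587 without sEV replicate 4 and -0.546 without dinutuximab replicate 3.

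Mirg (ENSMUSG00000097391, 109729764 to 109749460, plus strand), a microRNA host at the distal end of the maternal RNAs, had the lowest log2 fold change of the cluster. It had 21 and 27 counts in sEV tumours and 87 and 41 in dinutuximab tumours, or 0.802 and 0.936 CPM in sEV tumours and 3.39 and 1.68 CPM in dinutuximab tumours. Dinutuximab replicate 3 was 2.02-fold above replicate 4 of its group, and without it the log2 fold change of -1.54 ± 0.43 (SE, edgeR adjusted p = 0.646) was -0.945. Meg3 (ENSMUSG00000021268, 109541001 to 109571726, plus strand), the long RNA beside the control region, was rare, with 8 and 3 counts in sEV tumours and 11 and 11 in dinutuximab tumours. Its log2 fold change was -1.11 ± 0.64 (SE, edgeR adjusted p = 0.908), and it passed the filter on low counts only through the dinutuximab group, so a lower value with sEVs was partly set by that filter. Without sEV replicate 4 its log2 fold change was -0.516.

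**Figure D2:**
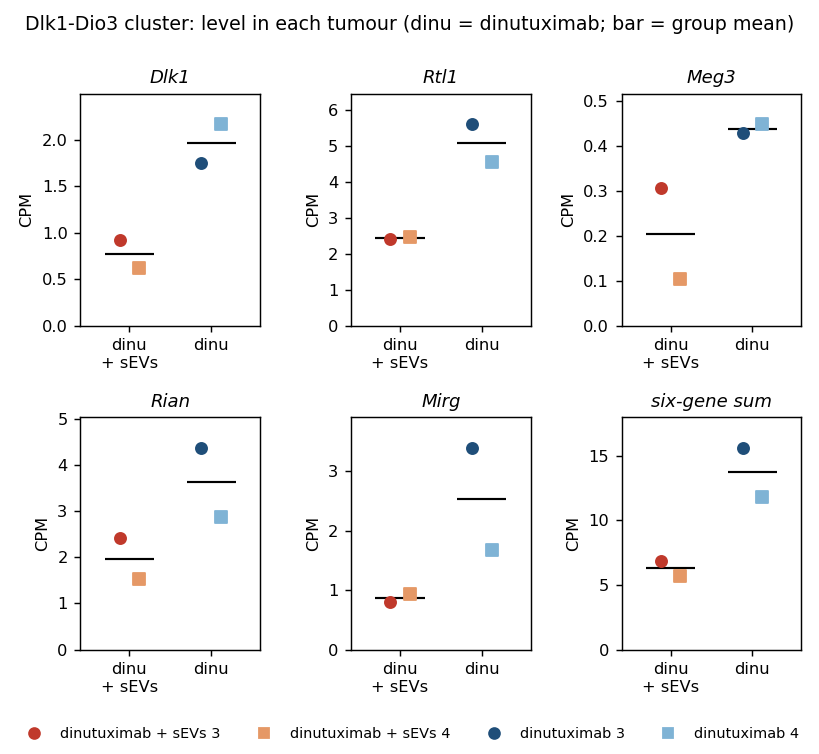
CPM in each of 4 tumours for 5 genes of the Dlk1-Dio3 cluster and for the sum of its 6 genes, with dinutuximab plus sEVs on the left and dinutuximab on the right of each panel; points are tumours and bars group means. In every panel both sEV tumours lie below both dinutuximab tumours, with the sum at 6.88 and 5.68 CPM against 15.6 and 11.8 CPM.

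The start windows of Dlk1 and Meg3, the first genes of the paternal and maternal sets, are printed here from RefSeq (GRCm38.p6) because both sets had lower values, together with that of Phlda2, the member of lowest p. Each window runs from 250 bases before the start to 50 bases after it and is written in the direction of transcription. Capitals mark matches, on either strand, to TGCCGC, the hexamer bound by the imprint-keeping factor ZFP57, and to TATAAA, the core of the TATA box. The windows are chr12:109452573-109452872 (plus strand) for Dlk1, chr12:109540746-109541045 (plus strand) for Meg3 and chr7:143502475-143502774 (minus strand) for Phlda2.
Dlk1: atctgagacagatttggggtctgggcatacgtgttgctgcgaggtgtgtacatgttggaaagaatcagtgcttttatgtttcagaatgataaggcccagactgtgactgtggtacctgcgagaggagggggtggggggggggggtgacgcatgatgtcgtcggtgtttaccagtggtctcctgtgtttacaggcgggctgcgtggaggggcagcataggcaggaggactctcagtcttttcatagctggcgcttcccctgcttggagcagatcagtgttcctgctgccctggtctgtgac
Meg3: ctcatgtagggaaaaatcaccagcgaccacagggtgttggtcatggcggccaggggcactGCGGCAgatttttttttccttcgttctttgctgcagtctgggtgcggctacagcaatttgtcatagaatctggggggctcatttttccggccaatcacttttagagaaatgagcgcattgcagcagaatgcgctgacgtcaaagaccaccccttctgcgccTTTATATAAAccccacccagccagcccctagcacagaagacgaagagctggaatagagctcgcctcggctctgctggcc
Phlda2: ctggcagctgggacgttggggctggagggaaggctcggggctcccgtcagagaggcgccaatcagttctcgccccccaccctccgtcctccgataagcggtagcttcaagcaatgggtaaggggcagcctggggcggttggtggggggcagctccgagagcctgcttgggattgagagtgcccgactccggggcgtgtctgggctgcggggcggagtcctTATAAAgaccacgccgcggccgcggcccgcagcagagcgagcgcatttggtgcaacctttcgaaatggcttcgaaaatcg
The Meg3 window held 1 match to TGCCGC, on the reverse strand, and 2 overlapping matches to TATAAA that begin 29 and 25 bases before the start. The Phlda2 window held a TATAAA match 30 bases before its start, and the Dlk1 window held neither motif. CpG dinucleotides numbered 9 in Dlk1, 13 in Meg3 and 26 in Phlda2, where the median over all 32851 RefSeq windows was 7. Of 42 windows of the 26 members with a window that could be shown, 23.8% held TGCCGC and 26.2% held TATAAA, where 11.6% and 13.6% of all windows did. These are matches of letters and no measure of binding.

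Rtl1 is covered on the opposite strand by microRNA hairpins, which is why its sequence context bears on its counts: where reads are counted without strand, Rtl1 and its antisense transcript cannot be told apart, and the strand setting was not given in the sources used here. RefSeq places 11 mature microRNAs on the plus strand inside Rtl1, with 11 different seeds. They are read from the maternal copy and, as perfect antisense, are known to cleave Rtl1 RNA. The 3′ arm or the only arm of each hairpin is given below, with the seed (bases 2 to 8) in capitals. Small RNAs were not measured here. The hairpin genes found to share exon bases with Rtl1 had 0 counts, but that of mmu-miR-136 was not among them.
mmu-miR-431-3p: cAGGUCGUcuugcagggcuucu
mmu-miR-433-3p: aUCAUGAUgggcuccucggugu
mmu-miR-127-3p: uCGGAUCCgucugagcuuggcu
mmu-miR-434-3p: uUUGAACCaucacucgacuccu
mmu-miR-432: uCUUGGAGuagaucagugggcag
mmu-miR-136-3p: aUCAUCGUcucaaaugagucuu
Mirg holds 26 mature microRNAs with 25 different seeds, Rian holds 6 and Meg3 holds 3. The pair in Mirg that shares a seed is mmu-miR-453 and mmu-miR-496a-5p.
mmu-miR-453: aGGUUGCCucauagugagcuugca
mmu-miR-496a-5p: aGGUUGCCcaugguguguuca

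Tested genes around the cluster lay on both sides of 0. Of 20 other tested genes within 1000 kb of its ends, a set chosen after the cluster's values were seen, 11 had negative and 9 positive log2 fold changes, with a median of -0.06 and a range of -0.4 to 0.52. Their groups did not overlap in 2 genes that were lower and 4 that were higher with sEVs. The background over all tested genes was 16.5% lower and 18.1% higher. The nearest tested genes on the Dlk1 side, Wars and Wdr25, had log2 fold changes of 0.26 ± 0.14 and 0.15 ± 0.28 (SE). Ppp2r5c, the nearest past Dio3, had -0.05 ± 0.13 (SE). Many of these other genes had higher levels than the cluster's genes, so the ranges differ in precision. The SE ran from 0.13 to 0.40 in the other genes, and from 0.28 for Rtl1 to 0.64 for Meg3 in the cluster.

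**Figure D3:**
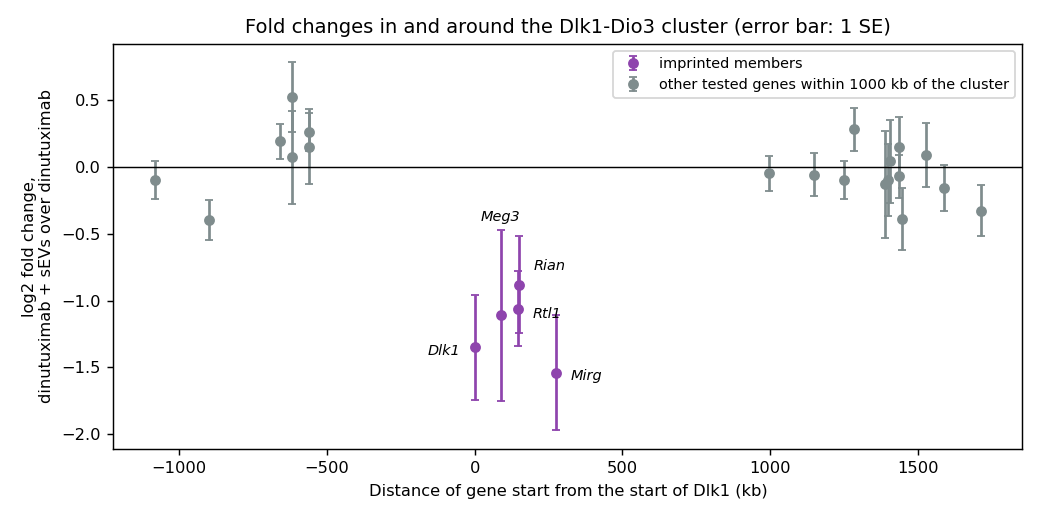
Log2 fold change of dinutuximab plus sEVs over dinutuximab (error bar, 1 SE) against distance of the gene start from the start of Dlk1 in kb, for 5 members of the cluster (purple) and 20 other tested genes within 1000 kb (grey). The members lie between -1.54 and -0.88 and the other genes between -0.4 and 0.52. Many of the other genes had higher levels, and so smaller SE.

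Summed markers of several stromal cells were lower in the same tumours as the cluster. Single markers often overlapped between groups, among them Rgs5, Des and Myh11 of pericytes and smooth muscle and Ckm and Tnni2 of skeletal muscle. Of 6 tested markers of pericytes and smooth muscle, 6 were negative, and the list summed to 53.0 and 47.8 CPM in sEV tumours and 96.8 and 88.7 CPM in dinutuximab tumours, with Cnn1 at 0. Acta2, the smooth muscle actin gene, had 5.12 and 4.19 CPM in sEV tumours and 27.7 and 10.6 CPM in dinutuximab tumours (-2.04 ± 0.40, SE; edgeR adjusted p = 0.463). Of 6 tested skeletal muscle markers, 6 were negative, and the 10 of that list summed to 15.4 and 14.8 CPM in sEV tumours and 22.7 and 20.4 CPM in dinutuximab tumours. Its lowest p was that of Myh1, a fast muscle myosin gene, at 0.191 and 0.277 CPM in sEV tumours and 1.48 and 1.52 CPM in dinutuximab tumours (-2.64 ± 0.46, SE; edgeR adjusted p = 0.383). Acta1 of the same list was uneven within each group, at 0.726 and 0.104 CPM in sEV tumours and 0.117 and 2.91 CPM in dinutuximab tumours. The myogenic progenitor markers Pax7, Myf5 and Myod1 were at 0 in all 4 libraries. Myog, the remaining marker of that kind, had 3 and 0 counts in sEV tumours and 0 and 5 in dinutuximab tumours. Of 8 endothelial markers, 7 were negative, with sums of 136 and 126 CPM in sEV tumours and 156 and 174 CPM in dinutuximab tumours. The fibroblast list summed the other way, at 898 and 748 CPM in sEV tumours and 643 and 636 CPM in dinutuximab tumours, although 5 of its 8 genes were negative. Macrophage markers summed to 3030 and 3120 CPM in sEV tumours and 2400 and 2780 CPM in dinutuximab tumours, and red blood cell genes to 70.1 and 42.3 CPM in sEV tumours and 35.0 and 21.2 CPM in dinutuximab tumours. Stress genes of the immediate early and heat shock classes were negative in 11 of 12 cases, and together had 539 and 544 CPM in sEV tumours and 677 and 643 CPM in dinutuximab tumours. Ribosomal RNA, as read through 3 genes known to gather such reads, made up 4.75% and 4.05% of counts in sEV tumours and 5.69% and 5.94% in dinutuximab tumours. The part of these lists in the cluster's level was not tested. In bulk tissue, fewer cells of a type and less RNA per cell cannot be told apart.

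The Igf2-H19 cluster had few counts. Per kilobase of exon, H19 averaged 0.156 CPM and Igf2 0.0521 CPM, between Meg3 at 0.0178 and Rtl1 at 0.591. Igf2 (chromosome 7, 142650766 to 142666816, minus strand) had 2 and 15 counts in sEV tumours and 9 and 6 in dinutuximab tumours, so that the sEV tumours held both the lowest and the highest value. It averaged 0.298 ± 0.314 CPM in sEV tumours and 0.298 ± 0.0743 CPM in dinutuximab tumours (SD, n = 2 each) and did not pass the filter. H19 (142575529 to 142578143, minus strand) had 8 and 3 counts in sEV tumours and 11 and 17 in dinutuximab tumours. Its log2 fold change was -1.46 ± 0.65 (SE, edgeR adjusted p = 0.885), and like Meg3 it passed the filter only through the dinutuximab group. It was -2.39 without sEV replicate 3 and -0.865 without sEV replicate 4. The pair summed to 10 and 18 counts in sEV tumours and 20 and 23 counts in dinutuximab tumours, a log2 ratio of -0.78, or -1.17 without sEV replicate 4 and -0.46 at the least without another tumour.

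In the Kcnq1 domain of chromosome 7 the 3 members gave 3 different patterns. Phlda2 (ENSMUSG00000010760, 143501545 to 143503150, minus strand), which encodes a small pleckstrin-homology protein, had 731 and 1004 counts in sEV tumours and 1731 and 1256 in dinutuximab tumours, or 27.9 and 34.8 CPM in sEV tumours and 67.5 and 51.4 CPM in dinutuximab tumours. The groups did not overlap and were 1.48-fold apart at the nearest, more than the 1.25-fold within the sEV group and the 1.31-fold within the dinutuximab group. The log2 fold change was -0.92 ± 0.18 (SE, edgeR adjusted p = 0.463), while DESeq2 gave an adjusted p of 0.00317. Kcnq1ot1 (143203458 to 143296549, minus strand), the paternal long RNA that silences this domain in cis, had 4.24 and 5.06 CPM in sEV tumours and 4.48 and 4.95 CPM in dinutuximab tumours. Its groups overlapped, and its log2 fold change was -0.02 ± 0.25 (SE, edgeR adjusted p = 0.997), turning to 0.017 with total counts alone as the scale. Cdkn1c (143458339 to 143461050, minus strand), which encodes the cyclin-dependent kinase inhibitor p57, had 7 and 9 counts in sEV tumours and 4 and 4 in dinutuximab tumours, too few for the filter.

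Among 21 other tested genes within 1000 kb of Phlda2, also chosen after its values were seen, 16 had negative and 5 positive log2 fold changes, with a median of -0.08. Slc22a18 and Nap1l4, the neighbours on either side, had 0.35 ± 0.28 and 0.06 ± 0.13 (SE). Cars, a tRNA synthetase gene, had -0.66 ± 0.17 (SE, edgeR adjusted p = 0.567) and Tnfrsf23 -0.55 ± 0.17 (SE, edgeR adjusted p = 0.715).

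On chromosome 6, Mest and Asb4 had lower values that leaned on 1 dinutuximab tumour each. Mest (30723547 to 30748465, plus strand), a paternal gene of mesodermal cells, had 3.17 and 3.22 CPM in sEV tumours and 4.33 and 7.49 CPM in dinutuximab tumours. The groups did not overlap, and the log2 fold change was -0.88 ± 0.32 (SE, edgeR adjusted p = 0.798), or -0.437 without dinutuximab replicate 4. Mest shares 912 exon bases, 23.1% of its exon length, with Copg2 on the other strand, which had 110 and 94.7 CPM in sEV tumours and 105 and 102 CPM in dinutuximab tumours, so its counts are uncertain. Asb4 (5383386 to 5433022, plus strand), a maternal gene with ankyrin repeats and a SOCS box, had 2.94 and 2.88 CPM in sEV tumours and 7.83 and 3.23 CPM in dinutuximab tumours. Its log2 fold change of -0.93 ± 0.40 (SE, edgeR adjusted p = 0.885) rested on dinutuximab replicate 3 and was -0.154 without it. Sgce (4674350 to 4747207, minus strand), the epsilon-sarcoglycan gene next to Peg10, had 21 and 10 counts in sEV tumours and 18 and 16 in dinutuximab tumours.

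Grb10 (chromosome 11), an adaptor that damps insulin and IGF receptor signalling, had 2.90 and 1.21 CPM in sEV tumours and 2.57 and 4.01 CPM in dinutuximab tumours, so that the groups overlapped (log2 fold change -0.68 ± 0.45, SE; edgeR adjusted p = 0.908). Without sEV replicate 4 it was -0.179. Slc38a4 (chromosome 15), an amino acid transporter gene, had 1.91 and 1.42 CPM in sEV tumours and 3.23 and 1.68 CPM in dinutuximab tumours, and its log2 fold change of -0.56 ± 0.40 (SE, edgeR adjusted p = 0.909) was -0.0141 without dinutuximab replicate 3. Both genes thus varied within a group as much as between the groups.

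The 3 members of the Prader-Willi region, all paternal and on chromosome 7, showed no common direction. Ndn, which encodes necdin, had 3.21 and 3.36 CPM in sEV tumours and 3.51 and 0.778 CPM in dinutuximab tumours. The low value of dinutuximab replicate 4 set its log2 fold change of 0.61 ± 0.56 (SE, edgeR adjusted p = 0.922), which was -0.0951 without that tumour. Magel2, a neighbour of the same MAGE family, was in contrast high in dinutuximab replicate 4, with 0.688 and 1.14 CPM in sEV tumours and 0.624 and 1.39 CPM in dinutuximab tumours. Snrpn, which encodes a splicing protein, had 2.64 and 3.78 CPM in sEV tumours and 3.66 and 3.19 CPM in dinutuximab tumours, and 27.3% of its exon bases are shared with a predicted gene on the same strand.

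**Figure D4:**
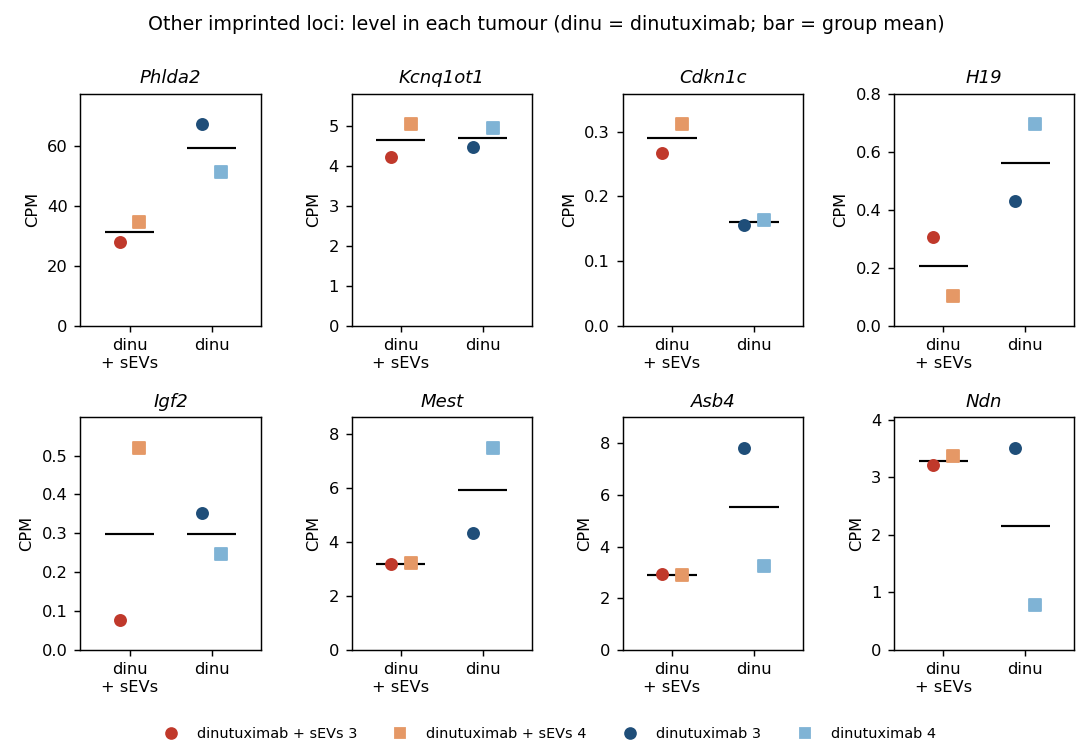
CPM in each of 4 tumours for 8 imprinted genes outside the Dlk1-Dio3 cluster, with dinutuximab plus sEVs on the left and dinutuximab on the right of each panel; points are tumours and bars group means. Phlda2 lies at 27.9 and 34.8 CPM against 67.5 and 51.4 CPM, while Kcnq1ot1 and Igf2 overlap between groups.

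At the Igf2r locus of chromosome 17 the receptor gene and its silencing antisense RNA both overlapped between groups. Igf2r had 83.3 and 115 CPM in sEV tumours and 93.1 and 122 CPM in dinutuximab tumours (log2 fold change -0.12 ± 0.19, SE; edgeR adjusted p = 0.960). Airn had 4.47 and 5.86 CPM in sEV tumours and 3.35 and 4.91 CPM in dinutuximab tumours (0.32 ± 0.29, SE; edgeR adjusted p = 0.920). In both groups the tumour numbered 4 was the higher for both genes.

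Gnas, Impact and Zrsr1 differed by at most 0.13 on the log2 scale. Gnas had 1510 and 1580 CPM in sEV tumours and 1470 and 1500 CPM in dinutuximab tumours, which did not overlap but differed by only 0.06 ± 0.12 on the log2 scale (SE, edgeR adjusted p = 0.962). Impact had 64.8 and 56.8 CPM in sEV tumours and 60.7 and 60.6 CPM in dinutuximab tumours. Zrsr1, a splicing factor gene inside an intron of Commd1, had 10.7 and 8.56 CPM in sEV tumours and 8.61 and 8.97 CPM in dinutuximab tumours. It shares 9.2% of its exon bases with Commd1 on the other strand.

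**Figure D5:**
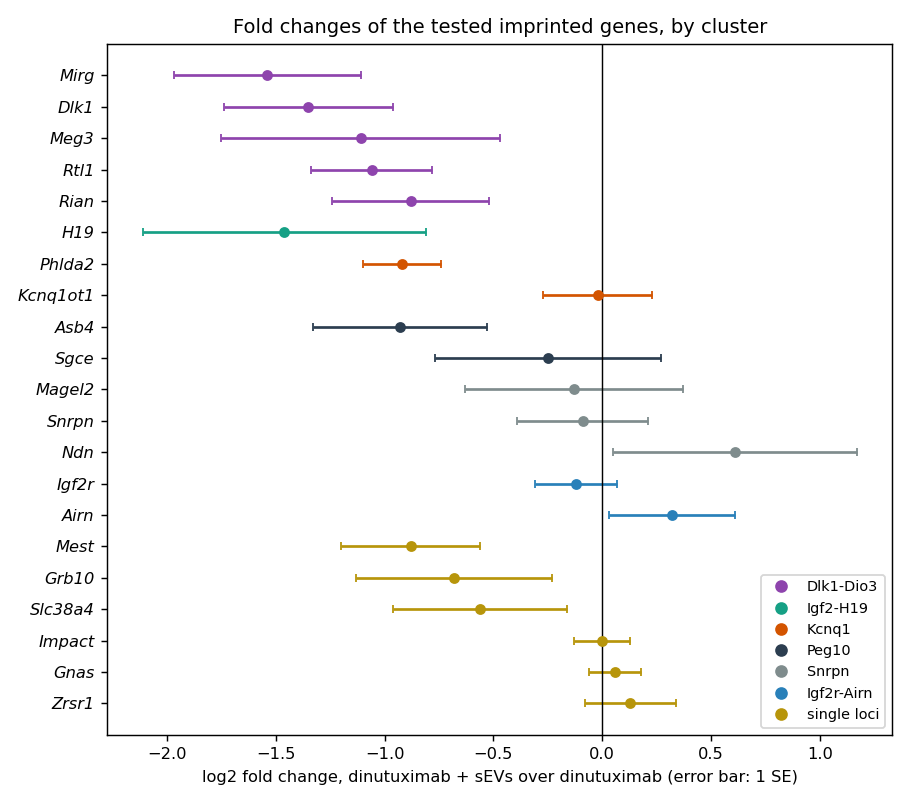
Log2 fold change of dinutuximab plus sEVs over dinutuximab (error bar, 1 SE) for the 21 tested imprinted genes, grouped and coloured by cluster. The 5 Dlk1-Dio3 genes lie from -1.54 to -0.88, Phlda2 at -0.92 and Gnas, Impact and Zrsr1 between 0.00 and 0.13.

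Counted over all 29 members with a count, 10 (34.5%) were lower in both sEV tumours than in both dinutuximab tumours and 3 (10.3%) higher, where 15.8% and 14.7% of all 22003 genes with a count were. For Dio3, with 1 count in every library, the order is that of the library sizes alone, and without it 9 of 28 (32.1%) were lower, 5 of them in the Dlk1-Dio3 cluster. Of the 23 members outside it with a count, 4 (17.4%) were lower, namely Phlda2, H19, Mest and Asb4, a share near the background. The 3 that were higher were Cdkn1c, Plagl1 and Gnas. Of the 21 tested members, Meg3, H19 and Sgce passed the filter only through the dinutuximab group. Among the 18 that passed in both groups, the median log2 fold change was -1.20 for the 4 inside the cluster and -0.11 for the 14 outside it, where the median of all 13823 tested genes was 0.001. Those outside include Gnas, Impact and Igf2r, whose far higher levels make their fold changes more precise.

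Imprinted genes beyond these 32 were split nearly evenly. Of a further 41, 25 were tested, and 13 were negative and 12 positive, with a median of -0.02. At an unadjusted p under 0.05, where 3.1% of all tested genes were lower and 2.47% higher, 0 were lower and 1 higher. That gene was Mcts2, a translation factor gene, at 8.52 and 10.9 CPM in sEV tumours and 6.59 and 6.76 CPM in dinutuximab tumours (log2 fold change 0.54 ± 0.22, SE; edgeR adjusted p = 0.861). The lowest p on the other side was that of Ppp1r9a, at -0.31 ± 0.19 (SE, edgeR adjusted p = 0.908).

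Of 15 tested genes that keep or read imprints, 0 passed, and 10 were negative, 2 of them at an unadjusted p under 0.05. The share of all tested genes that were lower at that limit was 3.1%. Zfp57, whose protein binds the methylated hexamer shown above and protects imprints in the embryo, had 0.688 and 1.32 CPM in sEV tumours and 1.95 and 2.62 CPM in dinutuximab tumours. Both sEV tumours lay below both dinutuximab tumours, at a log2 fold change of -1.18 ± 0.41 (SE, edgeR adjusted p = 0.786). Dnmt3a, a de novo DNA methyltransferase gene, had 22.2 and 36.5 CPM in sEV tumours and 39.6 and 46.4 CPM in dinutuximab tumours (-0.55 ± 0.23, SE; edgeR adjusted p = 0.862). Its log2 fold change was -0.243 without sEV replicate 3 and -0.952 without sEV replicate 4. Yy1 had 0.19 ± 0.13 (SE, edgeR adjusted p = 0.909).

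Among 11 tested genes of the IGF axis, 9 were negative and 0 passed. Of the negative genes, 3 had an unadjusted p under 0.05, a limit at which 3.1% of all 13823 tested genes were lower. Igf1r, the receptor that IGF2 signals through, had 22.2 and 22.8 CPM in sEV tumours and 26.9 and 32.0 CPM in dinutuximab tumours (-0.38 ± 0.16, SE; edgeR adjusted p = 0.861). Igfbp7, a secreted binding protein of vessels, had 24.4 and 29.4 CPM in sEV tumours and 40.1 and 39.8 CPM in dinutuximab tumours (-0.57 ± 0.15, SE; edgeR adjusted p = 0.614). Irs2, an adaptor of these receptors, had -0.77 ± 0.29 (SE, edgeR adjusted p = 0.809), or -0.355 without dinutuximab replicate 4. Igfbp6 had 0.17 ± 0.18 (SE, edgeR adjusted p = 0.938).

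Of 12 tested Notch pathway genes, on which DLK1 acts, 8 were negative, 1 of them at an unadjusted p under 0.05, and 0 passed. At that limit 3.1% of all tested genes were lower. Notch3, the receptor of smooth muscle and pericytes, had 1.57 and 0.901 CPM in sEV tumours and 2.53 and 3.11 CPM in dinutuximab tumours (-1.20 ± 0.38, SE; edgeR adjusted p = 0.720). Dlk2, the relative of Dlk1 outside the imprinted clusters, had 2.14 and 0.555 CPM in sEV tumours and 0.779 and 0.369 CPM in dinutuximab tumours (1.21 ± 0.67, SE; edgeR adjusted p = 0.892), and its high value was that of sEV replicate 3.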

How the data were processed

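RNA from 4 tumours was analysed from raw counts per Ensembl gene, which the authors deposited both for the series and for each sample; all 173728 values were equal. STAR, SAMtools, HTSeq and the mm10 build are named, per the submitters' processing notes. The tools' versions, strand setting, counting mode and gene annotation are not given in the sources used here, so counts of overlapping and antisense genes are uncertain. Libraries were made with a stranded mRNA kit, per the labels' protocols.

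The deposited counts were filtered with filterByExpr (edgeR 4.0.16, R 4.3.3; 13823 genes kept, cutoff near 0.381 CPM in 2 libraries), scaled with TMM and tested with the quasi-likelihood F test, with the group as the only term and Benjamini-Hochberg adjustment over all genes at 0.05. CPM is the count per 1e6 counts of TMM-scaled library size, and CPM per kb divides it by the GENCODE M21 exon union. Log2 fold changes are dinutuximab plus sEVs over dinutuximab, with the model's SE. The fits were tested on simulated data. Alternatives were DESeq2 1.42.0, limma-voom (limma 3.58.1), other scalings, filters and thresholds, the tumour number as a block, and leaving out each tumour. A group left with 1 tumour takes its spread from the other group.

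The members, lists and tests were chosen with earlier results of these data known. Every member is named, and of each other list up to 3 genes of lowest unadjusted p in each direction could be named. The text gives some of these, and the cell marker lists mainly as sums. Some marker genes are not reported here, and some sequences of members are not shown.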

Additional observations from a re-analysis of the deposited data

How the results depend on the processing

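The 5 tested Dlk1-Dio3 genes were negative under all alternatives run, except that Meg3 was not tested with a filter of 1 CPM, which left 4. The numbers of all genes called higher and lower, 0 and 0 by edgeR, were 17 and 38 with DESeq2, 107 and 155 without the filter on low counts, and 21 and 46 with the tumour number as a replicate block. They ran from 0 to 160 higher and from 0 to 156 lower when a tumour was left out. The labels do not say what the tumour numbers mean. The correlation of same-numbered deviations was 0.117 over 2 pairs, so the numbers were not taken as pairs. The other scalings, a threshold of 0.1 and limma-voom gave 0 and 0.

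Phlda2 passed with DESeq2 (log2 fold change -0.929), without the filter (-0.926) and with the block (-0.917). Those fits passed 0.398%, 1.19% and 0.485% of the genes they tested. The log2 fold change of Phlda2 was -0.782 without sEV replicate 3 and -1.09 without sEV replicate 4. It was -0.714 without dinutuximab replicate 3 and -1.11 without dinutuximab replicate 4. Without the filter, Rtl1 (edgeR adjusted p = 0.0492) and Mirg (edgeR adjusted p = 0.00914) also passed. Dnmt3a had a log2 fold change of -0.952 without sEV replicate 4 and -0.243 without sEV replicate 3. For Dlk2 the values were 1.88 without sEV replicate 4 and -0.0646 without sEV replicate 3. Lower members at an unadjusted p under 0.05 numbered 7 in the main fit, where 3.1% of all tested genes were lower. Over the other fits of all 4 tumours they numbered between 6, as with DESeq2, and 9, without the filter. The share of all genes lower at that limit in those fits is not reported here, so these numbers cannot be set against 3.1%. The summed log2 ratio of Igf2 and H19 ran from -1.17 to -0.46 over the left-out tumours, with -1.46 as the median of tested members. For the Kcnq1 domain it was -0.99 to -0.64, with -0.47 as that median. For Peg10, Sgce and Asb4 it was -1.29 to -0.22, and for Igf2r and Airn -0.35 to 0.11.

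Some genes changed sign. Kcnq1ot1 was 0.017 with total counts. Impact was -0.00252 with DESeq2, -0.00249 with DESeq2 size factors and -0.00499 with a filter of 1 CPM. Over the left-out tumours Kcnq1ot1 ran from -0.153 to 0.093, Impact from -0.103 to 0.097, Sgce from -0.968 to 0.241, Ndn from -0.0951 to 2.07, Magel2 from -0.598 to 0.555, Snrpn from -0.378 to 0.131, Igf2r from -0.366 to 0.0899, Zrsr1 from -0.0463 to 0.284, Igfbp6 from -0.125 to 0.411 and Dlk2 from -0.0646 to 1.88. The cause was not tested. Counts under about 100 per library limit most members, and 11 of 32 were too low to test.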
